A study of Mus musculus with 9 samples.

Results

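The genes followed here carry the interleukin-2 (IL-2) signal in mouse regulatory T cells: Il2rb, Il2rg, Jak1, Jak3, Stat5a, Stat5b, Socs1, Socs2, Socs3 and Cish. Every probe set that the array's annotation assigns to one of these 10 genes alone was taken, whatever its values. This gave 17 probe sets for 9 genes, out of 22626 probe sets and 12393 genes in the series. Il2rg, the common gamma chain of the receptor, has no probe set named in the annotation used here and was not analysed here. A further 2 probe sets name Jak3 together with another gene and were left out. All 9 genes passed the filter on low signals, as did 7436 genes in all.

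Cells positive for CD4 and CD25 had been separated with magnets, and RNA from each sample was hybridised to 1 Affymetrix array. The labels give strain C57BL6 for all 9 samples and place them in 3 groups of 3. The wild type samples carry no stated allele or treatment, and the others are conditional Sirt1 knockouts that rest on a CD4 Cre recombinase (here called CD4-cre) or a Foxp3 Cre recombinase (Foxp3-cre). The product of Sirt1 is a protein deacetylase, and the question set by the series is how its loss bears on regulatory T cells. CD4 is expressed in developing and mature T cells, so a Cre driven by it is active in other T cells as well, whereas Foxp3 marks regulatory T cells. The sources used here do not give which part of Sirt1 was removed, the age and sex of the mice, or whether animals were pooled. They also do not tie samples to animals, so the p-values cover only the differences among these samples, which can be technical.

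IL-2 binds a receptor of an alpha chain (CD25), a beta chain (Il2rb) and the common gamma chain. JAK1 binds the beta chain and JAK3 the gamma chain, and once active they phosphorylate STAT5A and STAT5B, which enter the nucleus and bind DNA. Regulatory T cells make little IL-2 of their own and depend on this pathway to keep Foxp3 expressed. Cish, Socs1, Socs2 and Socs3 are induced by STAT proteins, and their products damp the receptor and its kinases, which closes a feedback loop.

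Some of the feedback genes carry STAT-type letters near their start sites, and the stretches that hold them are printed because STAT proteins induce these genes. RefSeq promoter windows on build GRCm38.p6, from 250 bases before to 50 bases after a gene's start, were searched for TTCNNNGAA, which reads the same on both strands. Windows were found for 8 of the 10 genes, and for 2 of these, Cish and Socs3, the letters were present. Il2rb and Socs2 had no window, so their promoters were not searched. Of all 32851 windows of 300 bases, 8.30% hold the motif and 0.457% hold it at least 2 times. Capitals mark the motif, and each sequence runs 5′ to 3′ on the gene's own strand.
Cish, chr9:107296579-107296678, plus strand: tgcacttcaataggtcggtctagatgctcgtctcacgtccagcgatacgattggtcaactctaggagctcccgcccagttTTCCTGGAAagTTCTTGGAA
Socs3, chr11:117969457-117969556, minus strand: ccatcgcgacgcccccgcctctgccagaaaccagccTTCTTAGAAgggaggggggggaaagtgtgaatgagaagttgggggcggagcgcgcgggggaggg
In Cish the 2 copies lie in the first 20 bases from the start, 2 bases apart, a spacing that 1 of the 32851 windows holds and that was searched for after it was seen. In Socs3 the copy lies 154 to 146 bases upstream of the start. A match is a description of the letters and not a measured binding site.

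One wild type array, replicate 2, differed from the rest before any group was compared. Its 5′ minus 3′ signal for the beta-actin control, a measure of RNA quality, was -1.53 against -0.68 to -0.45 on the other 8 arrays. The mean log2 signal of its BioB hybridisation controls stood apart too, at 9.98 against 7.94 to 8.72. Why this array differs was not tested. It read below both other wild type arrays for 15 of the 17 probe sets of the pathway (88.2%), against 34.9% of all probe sets. It was also the lowest of all 9 arrays for 13 of the 17 (76.5%), against 24.3% of all probe sets. Among probe sets at or above the 40th percentile of signal the shares were 47.4% and 34.8%. Differences from wild type are therefore given with and without it for the 9 genes, and for the other genes and lists described. The targeted gene, Sirt1, had log2 signals of 7.91, 6.77 and 7.90 on the wild type arrays, 7.69, 7.59 and 7.59 with CD4-cre and 7.66, 7.54 and 7.47 with Foxp3-cre. Wild type replicate 2 was the lowest of these too, and since the deleted part is not given, the signal does not check the labels.

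T cell markers were level over the arrays, with a mean log2 signal of 10.6 to 10.8 over 6 genes. Foxp3, the defining factor of regulatory T cells, read 9.16, 9.68 and 9.34 on the wild type arrays and 9.68, 9.69 and 9.62 with CD4-cre. In the Foxp3-cre group it read 2.67, 3.38 and 2.83, between percentiles 11.3 and 23.8 of an array's probe sets. By this probe set the defining marker was near the bottom of the scale in the group labelled Foxp3-cre, and the reason was not tested. CD25 itself, Il2ra, lay between 8.39 and 8.79 on all 9 arrays. Of 6 regulatory T cell markers tested, 1 changed in Foxp3-cre against wild type, and it was Foxp3. Ctla4 read 10.15, 10.36 and 10.38 with Foxp3-cre, against 9.97 to 10.43 in wild type. Tnfrsf18 read 10.62, 10.92 and 10.85, against 10.71 to 10.92. For Ikzf2 and Ikzf4 the Foxp3-cre arrays also overlapped wild type. Whether the cells kept their regulatory identity was not tested.

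None of the 9 genes passed the test in any of the 3 comparisons. With limma over all genes tested and a Benjamini-Hochberg adjusted p below 0.05, 0 of 9 changed in CD4-cre against wild type, where 0.659% of all genes did. The count was 0 of 9 in Foxp3-cre against wild type, where 3.36% of all genes changed, and 0 of 9 between the knockouts, where 0.0134% did. At an unadjusted p below 0.05 the counts were 2 (14.1% of all genes), 1 (21.3%) and 0 (11.3%). The same test on single probe sets called 0 of 17 in each comparison, against 0.27%, 1.11% and 0.00442% of all probe sets. Unadjusted, it passed 3, 2 and 1 of the 17, against 10.5%, 13.7% and 9.08%. With wild type replicate 2 left out the gene counts were again 0 of 9, against 2.43%, 7.34% and 0.995% of all genes. Unadjusted, they were 1, 1 and 4 of 9, against 21.6%, 26.6% and 21.5%, so the count between the knockouts went from 0 to 4 through this 1 array, which enters that comparison only by the shared error. The probe set counts were then 0, 1 and 0 of 17, against 1.01%, 1.91% and 0.19%.

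The intervals say how large a difference these arrays leave room for. Over the 9 genes, the 95% confidence intervals of the log2 difference reached from -0.55 to 0.93 in CD4-cre and from -0.64 to 0.78 in Foxp3-cre, both against wild type. The gene nearest to the threshold was Socs2, in CD4-cre. A log2 difference of 1 is a 2-fold difference, and the median standard error over all genes was 0.11. The 3 arrays per group limit this precision.

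**Figure D1:**
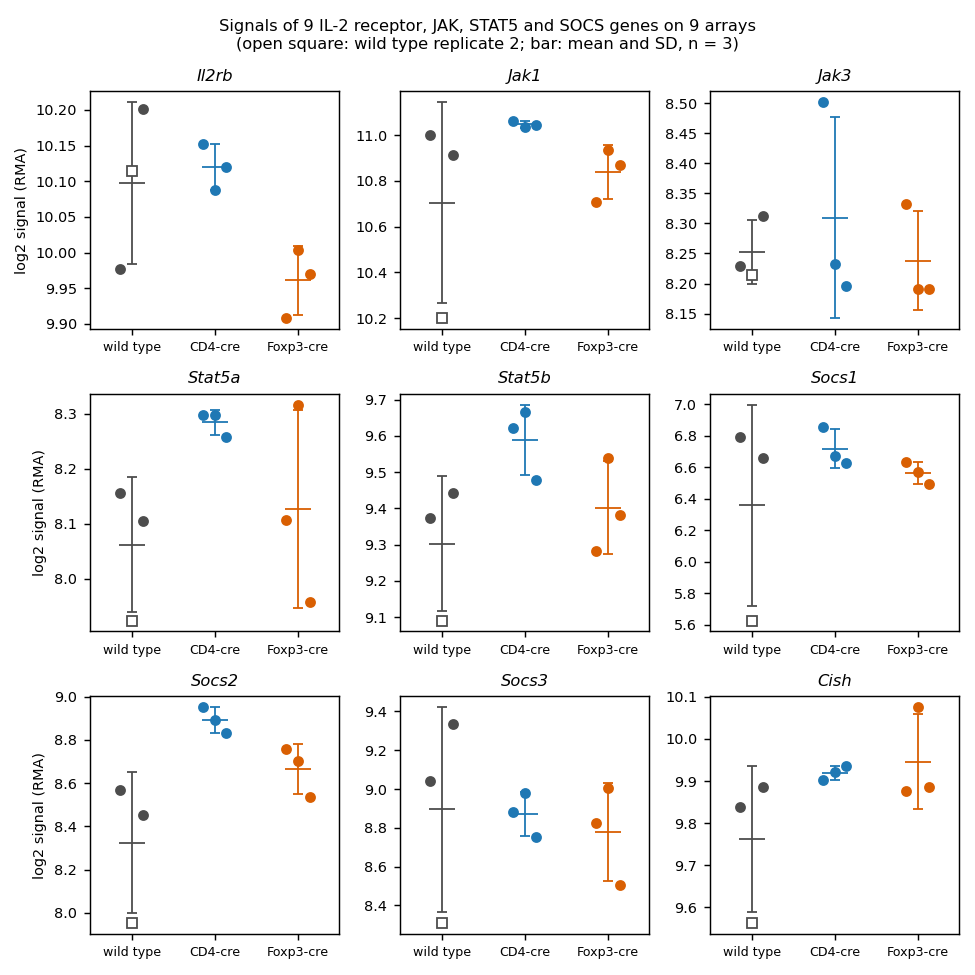
Log2 signal of each of the 9 genes on the 9 arrays, 1 panel per gene with its own axis, which does not start at 0. Points are arrays, the open square is wild type replicate 2, and bars give the mean and SD of 3 arrays. The open square is the lowest point for 7 of the 9 genes, all except Il2rb and Jak3.

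No difference of the receptor's beta chain passed the test. Il2rb, which IL-2 and IL-15 share, read 9.98, 10.11 and 10.20 on the wild type arrays, 10.15, 10.09 and 10.12 with CD4-cre and 9.91, 10.004 and 9.97 with Foxp3-cre. The Foxp3-cre arrays all lay below the CD4-cre arrays, while both groups overlapped wild type. The log2 difference was 0.02 ± 0.08 (SE) in CD4-cre against wild type and -0.14 ± 0.08 in Foxp3-cre (limma adjusted p = 0.915 and 0.347), with intervals of -0.16 to 0.20 and -0.31 to 0.04. The differences were 0.03 and -0.13 without wild type replicate 2. Between the knockouts it was -0.16, with an interval of -0.34 to 0.02 and an adjusted p of 0.491. The other Il2rb probe set gave 0.17 and 0.06 against wild type, and its groups overlapped in all 3 comparisons. Wild type replicate 2 was in the middle of its group on the first probe set and the lowest of all arrays on the other, at 8.66.

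Among the kinases, Jak3, which pairs with the common gamma chain, had groups that overlapped throughout. It read 8.23, 8.21 and 8.31 on the wild type arrays, 8.50, 8.23 and 8.20 with CD4-cre and 8.33, 8.19 and 8.19 with Foxp3-cre. The highest was CD4-cre replicate 1, and the differences from wild type were 0.06 in CD4-cre, with an interval of -0.16 to 0.27, and -0.01 in Foxp3-cre, with an interval of -0.23 to 0.20. They were 0.04 and -0.03 without wild type replicate 2.

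Jak1, the kinase on the beta chain, is covered by 3 probe sets that differ in what they show. The probe set 1433805_at stands for the gene in the test, since its mean is the highest. On it Jak1 read 11.001, 10.20 and 10.91 on the wild type arrays, 11.06, 11.03 and 11.04 with CD4-cre and 10.71, 10.94 and 10.87 with Foxp3-cre. The CD4-cre arrays lay above every wild type array and every Foxp3-cre array, narrowly over wild type replicate 1 and widely over wild type replicate 2. The log2 difference of CD4-cre from wild type was 0.34 ± 0.18 (limma adjusted p = 0.429), and without wild type replicate 2 it was 0.09. In Foxp3-cre it was 0.13 with that array and -0.12 without it, so the sign depended on 1 array.

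A probe set of Jak1 that is not used for the gene ran the other way. On 1433803_at the signals were 9.99, 9.32 and 9.91 on the wild type arrays, 9.62, 9.64 and 9.66 with CD4-cre and 9.51, 9.52 and 9.63 with Foxp3-cre. With all arrays both knockouts overlapped wild type, with wild type replicate 2 the lowest of the 9. The differences were -0.09 and -0.18, with adjusted p of 0.849 and 0.623 over all probe sets by limma. On the 8 arrays other than wild type replicate 2, this probe set fell by 0.39 in Foxp3-cre (adjusted p = 0.0331), and its difference in CD4-cre was -0.30 (adjusted p = 0.0922). There the other 2 Jak1 probe sets gave -0.12 and -0.26 in Foxp3-cre, and neither passed. With all arrays, 1433804_at differed by 0.05 in CD4-cre and -0.34 in Foxp3-cre (limma adjusted p = 0.933 and 0.383). Between the knockouts its difference was -0.39 (adjusted p = 0.509), and its groups overlapped in every comparison. Wild type replicate 2 was the highest wild type array on it, at 8.46. Over the 9 arrays, given as a description, 1433803_at correlated at 0.65 with 1433805_at and at -0.03 with 1433804_at, and the latter correlated at -0.04 with 1433805_at. Without wild type replicate 2 these values were 0.31, 0.26 and 0.80.

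The STAT5 genes encode a pair of close homologues. On the probe set used for each gene, but not on its other one, every CD4-cre array lay above wild type. Stat5a read 8.16, 7.92 and 8.11 on the wild type arrays, 8.30, 8.30 and 8.26 with CD4-cre and 8.11, 8.32 and 7.96 with Foxp3-cre. Its CD4-cre arrays lay above all 3 wild type arrays, while the Foxp3-cre arrays spanned both groups. The difference of CD4-cre from wild type was 0.22 ± 0.10 (limma adjusted p = 0.371), and 0.15 without wild type replicate 2.

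Stat5b read 9.37, 9.09 and 9.44 on the wild type arrays, 9.62, 9.67 and 9.48 with CD4-cre and 9.28, 9.54 and 9.38 with Foxp3-cre. Here too the CD4-cre arrays were above all wild type arrays and the Foxp3-cre arrays overlapped both groups. Its difference of 0.29 ± 0.11 in CD4-cre was 1 of the 2 with an unadjusted p below 0.05, and its adjusted p was 0.303 by limma. When wild type replicate 2 was left out it was 0.18, and the Foxp3-cre difference went from 0.10 to -0.01. The signals of Stat5a and Stat5b correlated at 0.85 over the 9 arrays and at 0.76 without wild type replicate 2, values that share the arrays' RNA quality and normalization.

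The other probe sets of the STAT5 genes differ in how far wild type replicate 2 departs. On 1450259_a_at of Stat5a, wild type replicate 2 read 4.19, and the other 8 arrays lay between 5.81 and 5.98. All 3 groups overlapped on it, and its CD4-cre difference from wild type was 0.57 with all arrays and 0.01 without wild type replicate 2. On 1422102_a_at of Stat5b the 9 signals lay between 5.39 and 5.71, and all 3 groups overlapped.

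**Figure D2:**
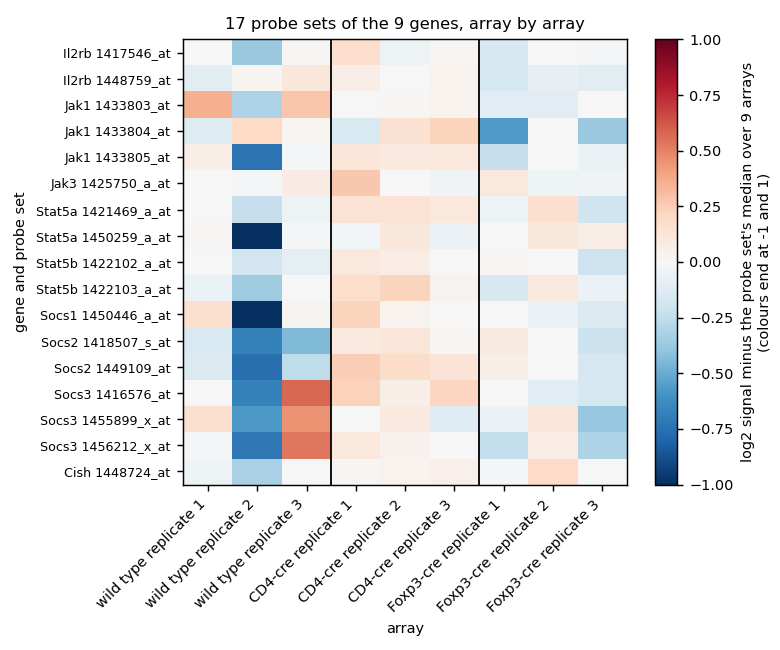
Log2 signal of each of the 17 probe sets minus its median over the 9 arrays, with 1 row per probe set and 1 column per array, grouped by genotype. Colours end at -1 and 1. The column of wild type replicate 2 is below the median in most rows, and the Jak1 rows differ from each other.

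Socs2, a feedback inhibitor best known for restraining growth hormone signalling, came nearest to passing. It read 8.57, 7.95 and 8.45 on the wild type arrays, 8.95, 8.89 and 8.83 with CD4-cre and 8.76, 8.70 and 8.53 with Foxp3-cre. Every CD4-cre array was above every wild type and every Foxp3-cre array, whereas the lowest Foxp3-cre array lay within the wild type range. The group means were 8.32 ± 0.33, 8.89 ± 0.06 and 8.67 ± 0.12 (SD, n = 3). In CD4-cre the difference from wild type was 0.57 ± 0.15 (SE), or 1.48-fold, with an interval of 0.23 to 0.90 and a limma adjusted p of 0.139.

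Leaving out wild type replicate 2 made the Socs2 difference smaller and its error smaller as well. It was then 0.38 ± 0.08, with an adjusted p of 0.0564. In Foxp3-cre the difference was 0.34 ± 0.15 (adjusted p = 0.223), and 0.16 without that array. Both Socs2 probe sets moved together: they correlated at 0.96 over the 9 arrays and the other one gave 0.50 and 0.38 against wild type. Between the knockouts Socs2 differed by -0.22, with an interval of -0.56 to 0.11 and an adjusted p of 0.624. Socs2 passed in CD4-cre under 2 other settings, given with the effect of processing, and did not pass when any 1 array was left out.

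Socs1, which blocks JAK kinases directly, had a difference from wild type that rested on 1 array. It read 6.79, 5.63 and 6.66 on the wild type arrays, 6.86, 6.67 and 6.63 with CD4-cre and 6.63, 6.57 and 6.49 with Foxp3-cre. Wild type replicate 2 was the lowest by far, and both knockouts overlapped the wild type range. The difference in CD4-cre was 0.36 ± 0.25 (adjusted p = 0.541, limma), and -0.01 without that array. In Foxp3-cre it was 0.21 with the array and -0.16 without it, and the Foxp3-cre arrays then lay below both remaining wild type arrays.

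Socs3, which acts mainly on receptors of the IL-6 family, had negative differences in both knockouts, larger without wild type replicate 2. It read 9.04, 8.31 and 9.33 on the wild type arrays, 8.88, 8.98 and 8.75 with CD4-cre and 8.83, 9.01 and 8.50 with Foxp3-cre. The wild type arrays held both the highest and the lowest value of the 9. With all arrays the differences were -0.02 and -0.12 with an SE of 0.23. Without wild type replicate 2 they were -0.32 (adjusted p = 0.274) and -0.41 (adjusted p = 0.133), and all knockout arrays lay below the 2 remaining wild type arrays. The 3 Socs3 probe sets correlated at 0.83 to 0.93 with each other, and on the other 2 the sign in CD4-cre was positive with all arrays, at 0.20 and 0.12. On these the wild type spread was as wide, from 7.79 to 9.04 and from 7.56 to 8.80.

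Cish, the STAT5 target whose motif pair is printed above, had small differences. It read 9.84, 9.56 and 9.89 on the wild type arrays, 9.90, 9.92 and 9.93 with CD4-cre and 9.88, 10.08 and 9.89 with Foxp3-cre. The CD4-cre arrays were above all wild type arrays, narrowly over wild type replicate 3, and the Foxp3-cre arrays overlapped wild type. Its differences from wild type were 0.16 ± 0.10 and 0.18 ± 0.10 (adjusted p = 0.499 and 0.320, limma). Without wild type replicate 2 they were 0.06 and 0.08, and the knockouts differed from each other by 0.03.

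Most differences in CD4-cre were positive. Of the 9 genes, 8 had a positive difference from wild type, and the median was 0.22 against 0.03 over all genes tested. Jak1, Stat5a, Stat5b, Socs2 and Cish had all CD4-cre arrays above all wild type arrays on the probe set used for the gene. These were 5 of 9, while 11.9% of all genes lay above and 21% separated in either direction. Without wild type replicate 2 the median was 0.06, and the same 5 genes lay above the remaining wild type arrays, with Socs3 below them. On those 8 arrays 41.4% of all genes separated in one direction or the other. RNA quality, by the beta-actin ratio, and the BioB signal both moved with wild type replicate 2, and the median was smaller without that array.

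In Foxp3-cre 6 of the 9 genes had a positive difference from wild type, with a median of 0.10 against 0.01 over all genes. Separation from wild type was seen for 0 of 9, against 23.4% of all genes. When wild type replicate 2 was left out, the signs of Jak1, Stat5a, Stat5b and Socs1 turned, 7 of 9 differences were negative, and the median was -0.03. Socs1 and Socs3 then lay below both remaining wild type arrays, 2 of 9 against 39.9% of all genes in either direction. The 2 knockouts share their wild type arrays, so their differences from wild type are not independent of each other.

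The comparison between the knockouts takes its differences from 6 arrays only, though the error is shared with wild type. Of the 9 genes, 8 were lower in Foxp3-cre than in CD4-cre, from -0.22 for Socs2 to -0.07 for Jak3, and Cish was the exception at 0.03. The median was -0.16 against -0.02 over all genes. Il2rb, Jak1 and Socs2 had all Foxp3-cre arrays below all CD4-cre arrays, 3 of 9, while 18.8% of all genes lay below and 29.7% separated either way. None of these differences passed the test, with adjusted p of 0.491 or more by limma.

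**Figure D3:**
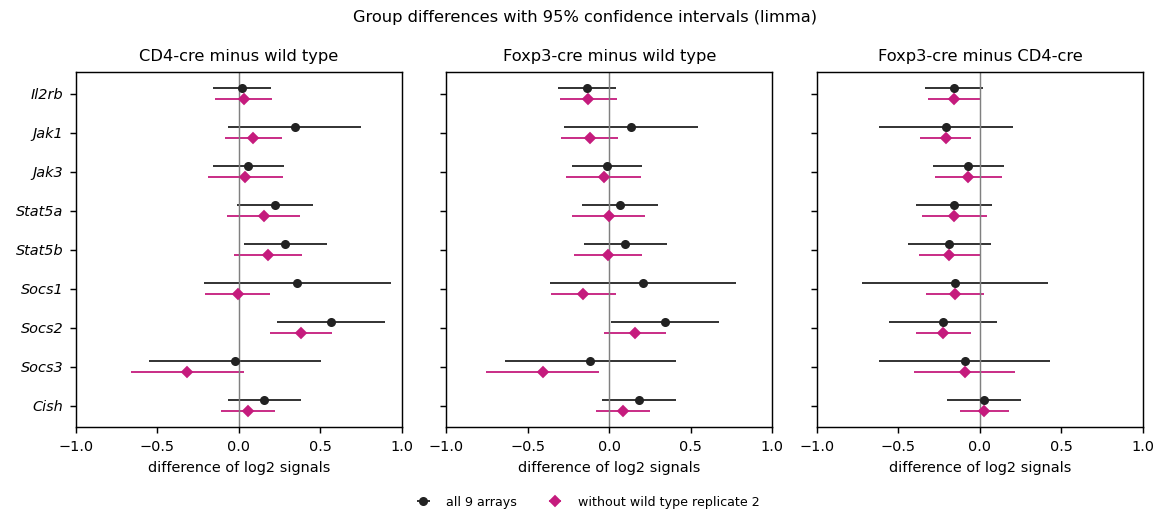
Differences of mean log2 signal for the 9 genes in the 3 comparisons, with 95% confidence intervals from limma; circles use all 9 arrays and diamonds leave out wild type replicate 2. Most intervals include 0. With all arrays, those of Socs2 (0.23 to 0.90) and Stat5b (0.03 to 0.54) in CD4-cre and Socs2 in Foxp3-cre (0.01 to 0.67) do not. Without wild type replicate 2, those of Socs2 in CD4-cre, Socs3 in Foxp3-cre, and Il2rb, Jak1, Stat5b and Socs2 between the knockouts do not. None of the differences passed the adjusted threshold.

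The rest of the pathway was read from 7 lists of genes, each named by its role; over all genes tested the median differences were 0.03 in CD4-cre, 0.01 in Foxp3-cre and -0.02 between the knockouts. Among the other receptors of the common gamma family, 0 of 5 genes tested changed in any comparison, with medians of -0.01, -0.07 and -0.08 for CD4-cre, Foxp3-cre and the knockouts against each other. The medians against wild type were -0.05 and -0.24 without wild type replicate 2, and again 0 of 5 changed. The Foxp3-cre median thus went from -0.07 to -0.24 when 1 array was left out. Il7r, the receptor of the survival cytokine IL-7, had a difference of -0.46 in Foxp3-cre (adjusted p = 0.147), and -0.45 without that array. For Il4ra, the receptor chain for IL-4, it was -0.29 (adjusted p = 0.113), and -0.25 without it.

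Of the cytokines that signal through the common gamma chain, Il2 and Il4 were bright enough to test, and Il4 fell in both knockouts. Il4, the cytokine that drives type 2 helper T cells, read 6.55, 6.56 and 6.26 on the wild type arrays, 5.57, 5.49 and 5.57 with CD4-cre and 5.06, 5.30 and 5.15 with Foxp3-cre. The 3 groups did not overlap, and the Foxp3-cre signals were close to the filter at 4.98. It fell by 0.91 ± 0.10 in CD4-cre (adjusted p = 0.00676) and fell by 1.29 ± 0.10 in Foxp3-cre (adjusted p = 0.000510). Without CD4-cre replicate 2 the CD4-cre difference no longer passed, at an adjusted p of 0.0655. The knockouts differed by -0.37 from each other, with an adjusted p of 0.247. It fell by 0.86 and by 1.24 without wild type replicate 2.

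Il2, the cytokine of the pathway itself, had differences of the opposite sign and did not pass with all arrays. It read 5.84, 4.96 and 5.30 on the wild type arrays, 5.99, 5.85 and 5.75 with CD4-cre and 5.84, 5.59 and 5.67 with Foxp3-cre. Both knockouts overlapped wild type replicate 1 and lay above the other wild type arrays. The differences were 0.50 ± 0.19 in CD4-cre and 0.34 ± 0.19 in Foxp3-cre (limma adjusted p = 0.290 and 0.335), and 0.30 and 0.14 without wild type replicate 2. In Foxp3-cre it rose by 0.58 when wild type replicate 1 was left out (adjusted p = 0.0448). Since the 2 genes differ in sign, the list's median is not given.

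The mean of natural killer (NK) cell markers was lower in both knockouts than in wild type, but unlike Il4 it did not separate the knockouts. Their mean log2 signal over 5 genes was 6.64 to 6.85 in wild type, 6.09 to 6.49 in CD4-cre and 6.09 to 6.50 in Foxp3-cre. Of the 4 tested, 0 changed in CD4-cre and 1 in Foxp3-cre, where 0.659% and 3.36% of all genes did. Klra1 was the marker nearest the bottom of the scale, at 2.04 to 2.38. Their part in the Il4 result was not tested, and in sorted bulk cells, fewer cells of a type and less RNA per cell cannot be told apart.

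Among the other JAK and STAT genes, 0 of 6 changed with all arrays, and the medians were -0.06, -0.13 and -0.03. On the 8 arrays without wild type replicate 2 the medians were -0.09 and -0.14 against wild type, and 1 of 6 fell in each knockout, against 2.43% and 7.34% of all genes. Stat4, the factor below the IL-12 receptor, read 8.69, 8.29 and 8.61 on the wild type arrays, 8.14, 8.07 and 8.29 with CD4-cre and 8.05, 8.23 and 8.21 with Foxp3-cre. The knockout arrays lay below wild type replicates 1 and 3, and CD4-cre replicate 3 reached the value of wild type replicate 2. The differences were -0.36 and -0.37 (adjusted p = 0.216 and 0.113, limma), and without wild type replicate 2 Stat4 fell by 0.48 in each knockout (adjusted p = 0.0358 and 0.0221). Tyk2, a kinase that works with JAK1 on other receptors, differed by 0.05 and -0.16, and by 0.10 and -0.11 without that array.

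In the list of other SOCS, PIAS, phosphatase and related genes of JAK-STAT signalling, 1 of 12 genes tested changed, in Foxp3-cre, where 3.36% of all genes did. Whether the product of this gene damps or aids the signal in these cells was not tested. Ptpn11, which encodes the phosphatase SHP-2, read 8.50, 8.37 and 8.51 on the wild type arrays, 8.51, 8.50 and 8.56 with CD4-cre and 8.87, 8.75 and 8.80 with Foxp3-cre. All Foxp3-cre arrays were above the other 6. It rose by 0.35 ± 0.07 in Foxp3-cre (adjusted p = 0.0412), and its CD4-cre difference was 0.06. It rose by 0.30 without wild type replicate 2. The call was kept without wild type replicate 1 or 2 and lost without each of the other 7 arrays, where the adjusted p lay between 0.0767 and 0.117. The 2 other Ptpn11 probe sets gave 0.06 and -0.08. The list's medians against wild type were 0.04 and 0.03, and 0.02 and -0.03 without wild type replicate 2.

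Of 16 STAT5 target genes tested, 0 rose in any comparison with all arrays, 1 fell in CD4-cre and 3 fell in Foxp3-cre, and Foxp3 was the 1 that differed between the knockouts. Over all genes 0.659%, 3.36% and 0.0134% changed in these comparisons. The medians were -0.03 and -0.09 against wild type and -0.01 between the knockouts, and without wild type replicate 2 those against wild type were -0.08 and -0.09. The list is not split by whether STAT5 raises or lowers a target, so neither the counts nor the medians measure STAT5 activity. Foxp3 itself, a STAT5 target and 1 of the 3 in Foxp3-cre, fell there by 6.44 (by 6.29 without wild type replicate 2), as the signals given above show. Tnfrsf9, the costimulatory receptor 4-1BB, read 8.89, 8.89 and 8.81 on the wild type arrays, 8.44, 8.39 and 8.40 with CD4-cre and 8.42, 8.31 and 8.24 with Foxp3-cre. Both knockouts lay below all wild type arrays. It fell by 0.45 ± 0.08 in CD4-cre (adjusted p = 0.0382) and fell by 0.54 ± 0.08 in Foxp3-cre (adjusted p = 0.0107), and without wild type replicate 2 by 0.44 and 0.53. The CD4-cre call was kept without wild type replicate 2 or Foxp3-cre replicate 1 and lost without each of the other 7 arrays, at adjusted p of 0.0665 to 0.185. The Foxp3-cre call was kept without any 1 array. On the other 2 Tnfrsf9 probe sets the differences were -0.07 and 0.08 for CD4-cre, and for Foxp3-cre -0.23 and -0.14.

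Pim1, a survival kinase induced by STAT5, read 10.53, 10.85 and 10.84 on the wild type arrays, 10.61, 10.61 and 10.62 with CD4-cre and 10.16, 10.30 and 10.24 with Foxp3-cre. The Foxp3-cre arrays were below the other 6. Pim1 fell by 0.51 ± 0.10 in Foxp3-cre (adjusted p = 0.0284), and its CD4-cre difference was -0.13. The fall was 0.45 without wild type replicate 2. The call was kept without wild type replicate 1 or 2 and lost without each of the other 7 arrays, at adjusted p of 0.0549 to 0.0928. The other Pim1 probe set gave -0.15. Tnfrsf4, another costimulatory receptor, passed in both knockouts when wild type replicate 2 was left out: it then rose by 0.43 in CD4-cre (adjusted p = 0.0366) and by 0.34 in Foxp3-cre (adjusted p = 0.0428).

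Along the PI3K and MAPK branches below the receptor, 0 of 16 genes tested changed in any comparison with all arrays, with medians of 0.02, 0.04 and -0.02. They were -0.02 and -0.03 against wild type without wild type replicate 2, and again 0 changed. Pik3cd, the PI3K subunit of lymphocytes, had differences of -0.27 and -0.34 (adjusted p = 0.298 and 0.109), and -0.29 and -0.36 without that array. Pik3cd and Tsc1, an inhibitor of mTOR signalling, fell in Foxp3-cre when wild type replicate 1 was left out, by 0.42 and 0.39 (adjusted p = 0.0485 and 0.0395). Syk, a kinase of B cells and myeloid cells, had differences of 0.00 and 0.52 (0.02 and 0.54 without wild type replicate 2). Its Foxp3-cre arrays read 6.05, 7.22 and 7.54, against 6.13 to 6.67 on the other 6, and without Foxp3-cre replicate 1 it rose by 0.97 (adjusted p = 0.0272). The mean of the B cell markers moved with it: over 6 genes it was 7.03, 8.27 and 8.36 on the Foxp3-cre arrays and 7.14 to 7.74 on the others. That of 9 macrophage markers also rose over the Foxp3-cre arrays, at 6.67, 7.42 and 8.20, against 5.87 to 7.004 on the others. Not every B cell marker did so. Ighm lay below wild type on all Foxp3-cre arrays, at 12.87, 13.31 and 13.45 against 13.67 to 13.74, and Pax5 read 3.66, 3.82 and 3.50. The part of B cells and of macrophages in the Syk values was not tested.

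Among receptors outside the family that also use JAKs, 1 of 10 genes tested changed, in Foxp3-cre, where 3.36% of all genes did. Il6st, the shared gp130 chain of the IL-6 family, read 8.97, 9.41 and 9.20 on the wild type arrays, 8.63, 8.51 and 8.52 with CD4-cre and 8.73, 8.32 and 8.26 with Foxp3-cre. Both knockouts lay below all wild type arrays. It fell by 0.75 ± 0.14 in Foxp3-cre (adjusted p = 0.0281), and the CD4-cre difference was -0.64 (adjusted p = 0.0994). With wild type replicate 2 left out it fell by 0.64 in Foxp3-cre, and the CD4-cre difference was -0.53. The call was lost without wild type replicate 3, Foxp3-cre replicate 2 or 3, or any CD4-cre array, at adjusted p of 0.0546 to 0.0998. The 2 other Il6st probe sets gave -0.002 and -0.02 in Foxp3-cre. The list's medians were -0.07 and -0.18 against wild type and -0.12 between the knockouts, and -0.05 and -0.21 against wild type without wild type replicate 2. On those arrays Ifnar1 and Il10rb also fell in Foxp3-cre, by 0.43 and 0.44 (adjusted p = 0.0254 and 0.0245), which made 3 of 10, against 7.34% of all genes. Il6ra, the receptor chain for IL-6, fell by 0.47 in Foxp3-cre when wild type replicate 1 was left out (adjusted p = 0.0437).

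**Figure D4:**
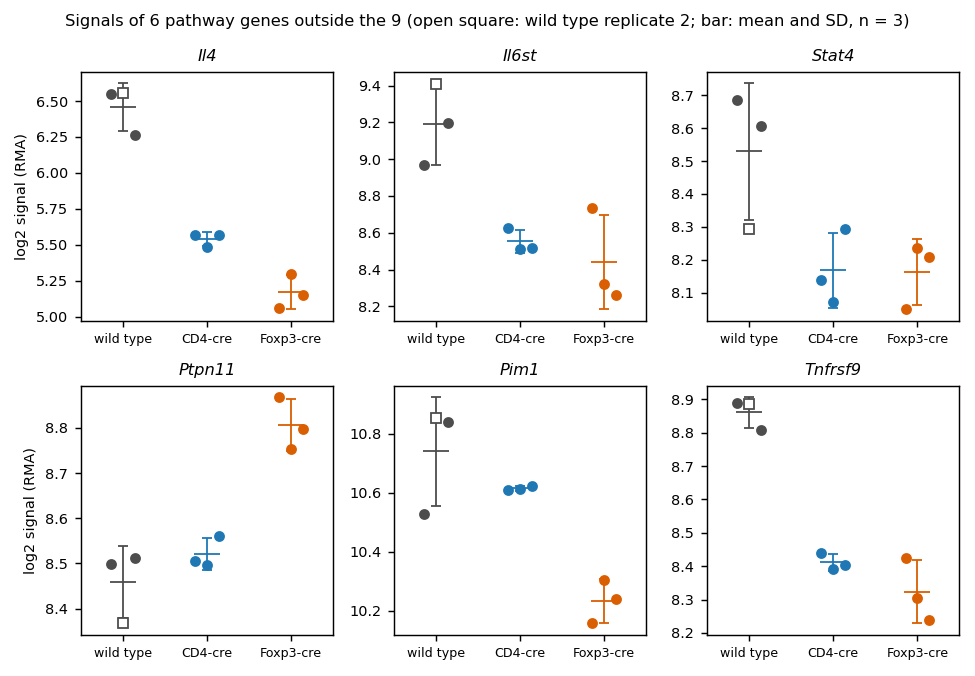
Log2 signals of 6 pathway genes outside the 9 on the 9 arrays, 1 panel per gene with its own axis, which does not start at 0; points are arrays, the open square is wild type replicate 2, and bars give the mean and SD of 3 arrays. The knockouts lie below wild type for Il4, Il6st and Tnfrsf9, and for Ptpn11 and Pim1 the Foxp3-cre arrays lie apart from the other 6.

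Markers of other cells moved with the Foxp3-cre group. The mean log2 signal of 10 neutrophil markers was 7.78 to 8.75 in wild type, 8.23 to 9.08 in CD4-cre and 9.16 to 10.14 in Foxp3-cre. Of the 10, 6 changed in Foxp3-cre, where 3.36% of all genes did. Not every neutrophil marker rose. Csf3r read 7.21, 7.66 and 8.41 with Foxp3-cre, against 7.43 to 8.94 in wild type, and Cxcr2 overlapped wild type too. For each of the other neutrophil markers all Foxp3-cre arrays lay above all wild type arrays. For 7 genes of dividing cells the means were 7.03 to 7.56, 7.66 to 7.79 and 7.98 to 8.93, and 4 of the 7 changed. For 9 macrophage markers the means were 5.98 to 6.46, 5.87 to 7.004 and 6.67 to 8.20, and 1 of the 6 tested changed. B cell markers, whose means are given above, changed for 0 of the 4 tested. Their part in the differences of Ptpn11, Pim1, Il6st and the 9 genes was not tested, nor was that of the NK cell markers in the differences of Tnfrsf9, Stat4 and Il6st.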

How the data were processed

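The authors deposited log2 signals for 9 arrays, 1 value per probe set, made with RMA per the submitters' processing notes; the sources used here do not give its version. RMA normalizes between arrays, so a change common to all genes is removed. Genes were named from the platform annotation. The 9 genes and the lists were chosen with earlier results of these data known.

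Each gene was represented by its probe set of highest mean, and genes at or above the 40th percentile of gene means (4.98) were tested, 7436 in all. A fit over the 3 groups used limma 3.58.1 in R 4.3.3 (6 residual and 3.37 prior degrees of freedom) with two-sided tests and Benjamini-Hochberg adjustment; changed means an adjusted p below 0.05. All 22626 probe sets were fitted the same way, unfiltered. The fits were tested on simulated data. Named are the 9 genes, up to 4 changed genes per list and comparison (or the 2 of largest difference where none changed), and 5 genes of like pattern to Socs2. Genes outside this rule (Tnfrsf4, Ifnar1, Il10rb, Il2, Tsc1, Il6ra, Mcl1) were chosen after their values were seen.

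Replicate numbers are shared between groups. Deviations from group means correlated above 0.1 in 7 of 9 same-numbered pairs, including all 3 of wild type with Foxp3-cre (0.20 to 0.25). The largest value was 0.49, for replicate 3 of CD4-cre with Foxp3-cre. The labels state no pairing and these correlations do not establish one. The main fit is therefore unpaired, and a fit with a replicate block is given beside it. Other settings tried were filters, probe set choice, normalization, variance model, arrays in the fit, array weights, an RNA quality covariate, a replicate block and leaving out each array.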

Additional observations from a re-analysis of the deposited data

Results flagged for a closer look

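Foxp3 differed between the knockouts by -6.70 on the log2 scale (Foxp3-cre minus CD4-cre), which is also the test of whether their differences from the shared wild type arrays differ (limma adjusted p = 1.48e-07). It was lower on 3 of 3 Foxp3-cre arrays than on every other array. By the same test 0 of the 9 genes of the IL-2 pathway passed.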

How the results depend on the processing

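The counts of changed genes stayed at 0 of 9 in most settings tried. With array weights, 1 of 9 changed in CD4-cre against wild type (Socs2, 0.45, limma adjusted p = 0.00609) and 1 of 9 between the knockouts (Socs2, -0.26, adjusted p = 0.0398). That setting called 1298 and 812 genes in these comparisons, against 49 and 1. Among probe sets it called 2 of 17 in CD4-cre, both of Socs2, and 1 of 17 in Foxp3-cre, Jak1 1433803_at at -0.34. With the beta-actin 5′ minus 3′ signal as a covariate, 1 gene changed in CD4-cre (Socs2, 0.43, adjusted p = 0.0370) and 1 probe set in Foxp3-cre (the same one of Jak1, -0.37). Leaving out 1 array at a time gave 0 to 1 probe sets in Foxp3-cre, 1 without wild type replicate 2. Why the weights and the covariate change these calls was not tested. The adjusted p of Socs2 in CD4-cre ranged from 0.00609 to 0.432 over 20 settings. Of 180 values per comparison, the sign of an uncalled difference turned in 10 (CD4-cre), 16 (Foxp3-cre) and 5 (between the knockouts).

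Counts over all genes moved more. For CD4-cre, Foxp3-cre and the knockouts against each other they were 49, 250 and 1. They became 22, 16 and 55 with only the 2 groups compared in the fit, 1298, 1539 and 812 with array weights, 196, 550 and 32 with the covariate and 181, 546 and 74 without wild type replicate 2.

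With the replicate block, 0 of 9 genes changed in each comparison (Socs2 in CD4-cre, adjusted p = 0.113), and 67, 354 and 96 genes changed in all. The block changed no call of a gene named from the lists. By the labels the samples of different groups share only a number, although 8 of 9 arrays correlated best with arrays of their own number.

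Of the list calls, Il4 and Foxp3 in Foxp3-cre held in every setting that tested them. Il6st, Pim1, Ptpn11 and Tnfrsf9 in CD4-cre were lost in 9, 10, 11 and 11 of 20 settings, and Tnfrsf9 in Foxp3-cre in 1. Calls were gained as well: 24 list genes passed in at least 1 setting and comparison where they had not with the main settings, 22 of them with array weights, 4 each without wild type replicate 1 or 2, 3 with the covariate and 1 each without Foxp3-cre replicate 1 (Syk), with the mean of all probe sets (Mcl1, -0.42 and -0.49 in the knockouts) and with only the 2 groups compared (Pim1 between the knockouts, -0.38). Among the branches below the receptor, array weights called 4 of 16 in each knockout. They called 1298 and 1539 of all 7436 genes in CD4-cre and Foxp3-cre, so gains with them are not read as particular to these lists. They also called Il2 in CD4-cre. With 3 arrays per group, small differences cannot be called.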

Other observations

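Over the 9 arrays, the genes whose signals followed Socs2 most closely were Atp5g2 (Pearson correlation 0.980), Stim1 (0.971), Mbnl1 (0.968), Spag7 (0.966) and Sqle (0.965). Atp5g2 encodes a subunit of the mitochondrial ATP synthase, Stim1 a calcium sensor of the endoplasmic reticulum, Mbnl1 a splicing factor and Sqle an enzyme of sterol synthesis. Without wild type replicate 2 the correlations were 0.95, 0.919, 0.919, 0.918 and 0.970. They were picked as the highest among all genes tested, and all points share the arrays' RNA quality and normalization.

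Of the 9 genes, Jak1 and Socs1 correlated at 0.93 over the 9 arrays and at 0.50 without wild type replicate 2. For Socs2 and Socs3 the values were 0.45 and -0.24.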
